A study of Mus musculus with 9 samples.

Results

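Aortas of mice given BAPN (β-aminopropionitrile) were compared with aortas of untreated mice across all genes, in 4 of the 9 bulk RNA sequencing libraries of the series. The libraries were chosen by their treatment label alone: 2 came from C57BL/6J mice that drank distilled water (normal 1 and 2) and 2 from C57BL/6J mice given BAPN at 1 g/kg/day (BAPN 1 and 2), and all mice were killed on day 28. The other 5 libraries came from mice that received BAPN with TPA (2 libraries), T-5224 (2 libraries) or, in 1 library labelled co110, what is read here as coQ10, an agent that the protocol names. The titles of T-5224 1 and 2 give 2 weeks and 3 weeks, so these may differ in length of treatment. Those 5 entered the fit so that all groups shared 1 estimate of spread, and their levels are given only where a sentence says so. The sources used here do not give age, sex, the stretch of aorta taken, the number of mice behind a library or whether those mice had an aortic tear. The p-values therefore measure the spread between these libraries, which may be technical.

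BAPN blocks the lysyl oxidases, the copper enzymes that cross-link collagen and elastin, and a wall built without those cross-links can dilate and tear. The middle layer of the aorta is made of smooth muscle cells and elastic sheets, the inner surface is endothelium, and the outer layer holds fibroblasts, nerves and small vessels. A torn aorta can hold clotted blood in its wall, and fat, heart muscle, lung, thymus and sympathetic ganglia lie close to it in the chest. A whole aorta sample is therefore a mixture, and genes of the wall are described here apart from those of blood and of neighbouring tissue. In such bulk samples, fewer cells of a type and less RNA per cell cannot be told apart.

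The deposited values were FPKM, which give each gene's reads relative to transcript length and to the reads of the library, with genes at 0 not listed. The libraries listed 16085 and 14699 genes (normal) and 14682 and 15392 genes (BAPN). Of all FPKM, the 7 haemoglobin genes took 1.25% and 1.03% in normal 1 and 2, and 68.9% and 74.1% in BAPN 1 and 2. Each library was therefore divided by a median-of-ratios size factor taken over 9849 genes, a scaling that does not follow the haemoglobin share, and all levels below are in these scaled FPKM. After scaling, the median change of the 13011 tested genes was 0.02 on the log2 scale. Without read counts the depth is unknown, and values near 0 have no counting interval. Normal 1 stood apart from normal 2: none of 4 Y-linked genes was listed in it, against all 4 in each of the other 8 libraries, and it held the genes of airway, heart and fat described below. Xist was listed in no library, and whether normal 1 differs in sex was not tested. Longer transcripts were relatively high in both normal libraries and low in both BAPN libraries, with a rank correlation between transcript length and a gene's deviation from its mean of 0.29 and 0.407 against -0.197 and -0.0826, across genes.

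By limma with Benjamini-Hochberg adjustment at a threshold of 0.05, 199 of 13011 genes rose (1.53%) and 30 fell (0.231%) in BAPN aorta. The 12 largest rises were of red cell genes (Hbb-bs, Hba-a2, Hbb-bt and Alas2), interleukin 6, the chemokines Ccl7, Cxcl1, Ccl2 and Cxcl2, the pentraxin Ptx3, the neuropeptide galanin (Gal) and the calgranulin S100a9, and the smooth muscle receptor Npy1r, the transcription factor Zbtb16 and the actin-binding protein Synpo2 were among the falls. The median rise was 3.04 and the median fall -2.14 on the log2 scale, and 102 rises but only 3 falls exceeded 3. Changes are on the scale of log2(scaled FPKM + 1), which understates the change of low genes. The balance depended on the scaling. With haemoglobin left out of the FPKM sum the test called 21 rises and 2 falls, with the deposited FPKM 117 and 307, and with size factors from wall genes 268 and 6, of which 163 and 2 were among the 199 and 30. The median change of all tested genes under these scalings was -0.41, -0.51 and 0.62. Rescaling each library to the same FPKM sum, which follows the haemoglobin share, moved that median to -1.92 and called 146 rises and 9557 falls, and values under it are to be read against that median. In the fit used here, both BAPN libraries lay above both normal libraries for 4085 tested genes (31.4%) and below them for 3680 (28.3%). An unbroken gap between the groups was thus common among all genes. An unadjusted limma p below 0.05 was common too, at 2978 of the 13011 tested genes. Counts of either kind in the lists below are to be read against these values.

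Single libraries carried much of the count. Without normal 1 the test called 28 rises and 2 falls, without normal 2 it called 22 and 26, and only 2 of those 26 falls (Rbm24 and Tmem254c) were among the 30. The others of the 26 included the airway genes Bpifb1, Foxj1 and Sftpa1 and the fat gene Plin1. Without a BAPN library few calls were left: 4 rises and 0 falls without BAPN 1, and again 4 and 0 without BAPN 2. Interleukin 6 (Il6), Cxcl1 and Ccl2 passed without any one of these 4 libraries, with adjusted p between 0.0177 and 0.0364 in those limma fits. Socs3 failed only without BAPN 1. Every other gene described below as having risen or fallen missed the threshold when 1 of the BAPN libraries was left out, where the lone library is assumed to vary like the other groups. At an unadjusted p below 0.05 there were 1953 genes without BAPN 1 and 1636 without BAPN 2, against 2978 with all libraries. The other groups also mattered through the estimate of spread. Without TPA 1 or TPA 2 the calls were 50 and 49 rises and 1 fall each, and without T-5224 1 or T-5224 2 they were 1116 and 1117 rises and 616 and 685 falls, which held all 229 of the calls described here.

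**Figure D1:**
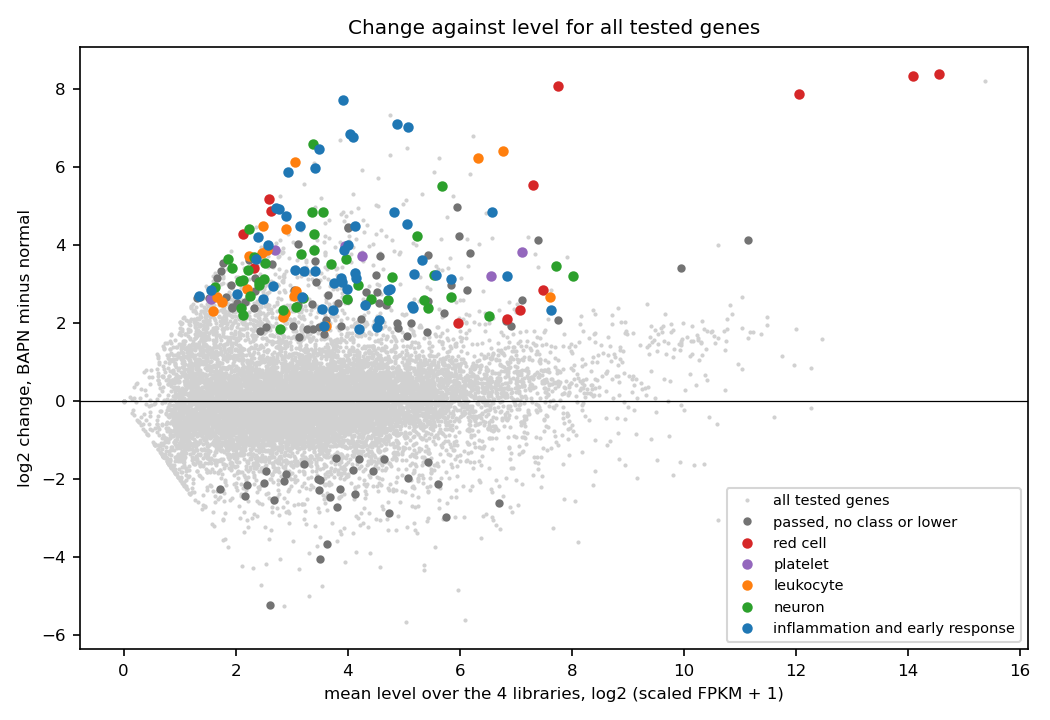
Log2 change (BAPN minus normal, vertical axis) against the mean log2 (scaled FPKM + 1) of the 4 libraries (horizontal axis) for each of 13011 tested genes, with the 229 genes that passed in larger points and their class in colour. The red cell genes sit at the top right, inflammatory genes reach a log2 change of 7.72 at low mean levels, and the 30 falls lie between -1.47 and -5.22.

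The 199 rises were sorted by known function, by hand and after the calls were seen. Of these, 53 (26.6%) were genes of inflammation and the early response, 41 (20.6%) of neurons, 18 (9.05%) of leukocytes, 13 (6.53%) of red cells and 6 (3.02%) of platelets, and 68 (34.2%) were not assigned. The mean log2 level of the inflammation genes was 2.10 and 2.07 in the normal libraries and 6.02 and 5.71 in the BAPN libraries. The neuron genes had mean levels of 2.39 and 1.63 against 5.24 and 5.39. For 178 of the 199 rises, both BAPN libraries lay above all other 7 libraries of the series, those given BAPN with another agent included. This held for 48 of the 53 inflammation genes, 40 of 41 neuron genes, 13 of 18 leukocyte genes, 5 of 6 platelet genes, 9 of 13 red cell genes and 63 of the 68 not assigned. All 199 were picked for high BAPN levels and already lay above both normal libraries. No share of all tested genes is given for this pattern, so these counts have no baseline. The mean level of the red cell genes in the TPA libraries (9.38 and 9.21) was close to that in the BAPN libraries (9.59 and 9.71). Of the lists drawn up for this comparison, 12 described the wall and held 220 tested genes, of which 4 rose (1.82%, close to the share of all genes) and 5 fell (2.27%). The 18 lists of responses held 302 tested genes, with 31 rises (10.3%) and 4 falls (1.32%), and the 18 lists of blood and neighbouring tissue held 190, with 15 rises (7.89%) and 1 fall (0.526%).

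**Figure D2:**
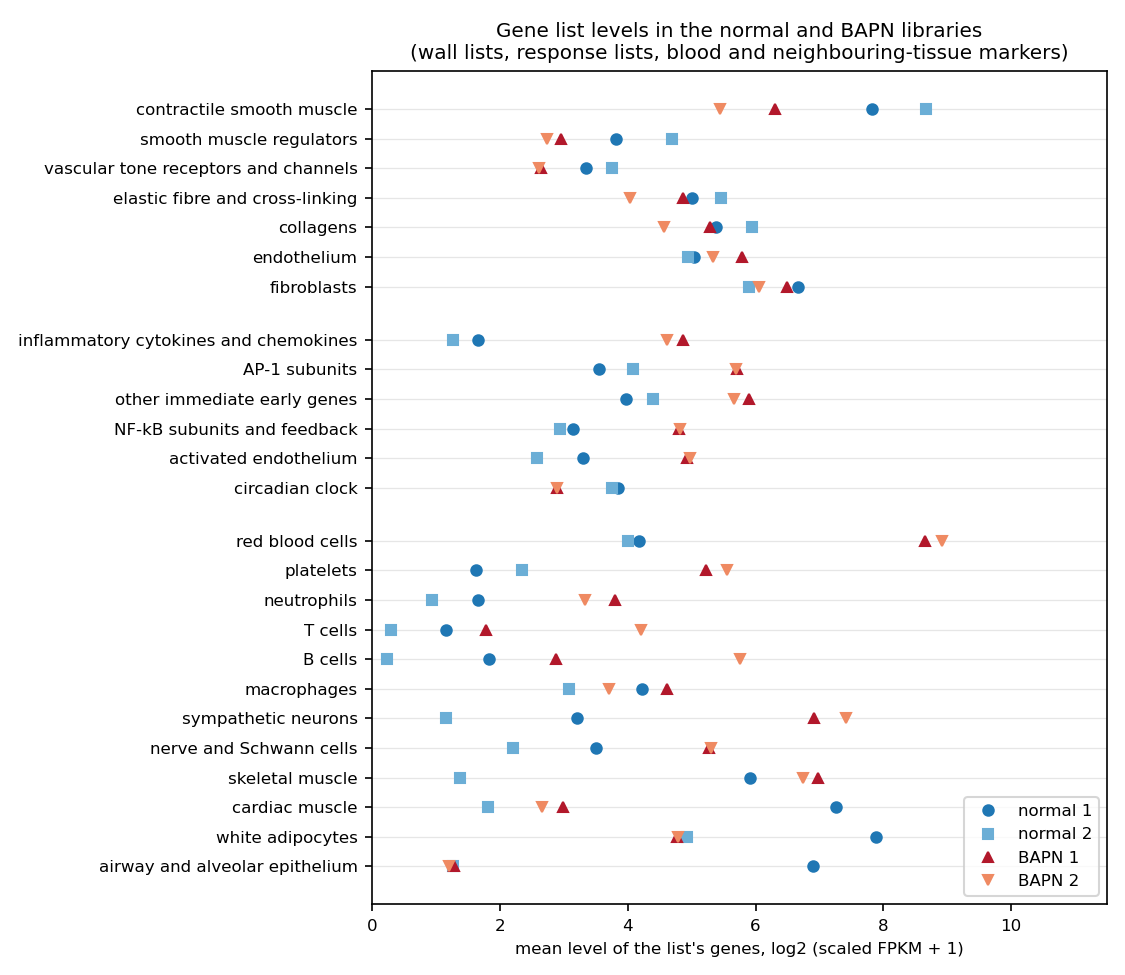
Mean log2 (scaled FPKM + 1) of each list's genes (horizontal axis) in normal 1, normal 2, BAPN 1 and BAPN 2, for wall lists (top block), response lists (middle) and markers of blood and neighbouring tissue (bottom). The contractile list lies lower in both BAPN libraries (6.30 and 5.44 against 7.82 and 8.66), the cytokine, AP-1, NF-kB, red cell, platelet and sympathetic neuron lists lie higher, and heart, fat and airway markers are high in normal 1 alone.

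Cytokines and chemokines held more calls than any other response list: 12 of 24 tested members rose, none fell, and the median change was 3.68. For 21 of the 24, both BAPN libraries lay above both normal libraries, against 31.4% of all tested genes. The list has 29 members, and the filter on the mean over all libraries keeps genes that are high in BAPN alone. Part of the direction of these counts was thus set by the filter, and without it the median was 3.16. Interleukin 6, a cytokine of the acute phase response (Il6, chr5:30013114-30019975, GRCm38), was not listed in normal 1, stood at 0.089 scaled FPKM in normal 2, and reached 265.4 in BAPN 1 and 180.71 in BAPN 2. Its log2 change was 7.72 ± 0.34 (SE) with an adjusted p of 0.000997 in limma, and in the TPA libraries, which also received BAPN, it stood at 8.37 and 13.6. Cxcl1, a chemokine that draws neutrophils (chr5:90891245-90893121), went from 2.40 and 1.57 to 450.03 and 329.57, a log2 change of 7.03 ± 0.34 with an adjusted p of 0.000997. Cxcl1 stood at 50.4 and 53.9 in the TPA libraries, between the normal and BAPN levels. Cxcl2, which binds the same neutrophil receptor, stood at 0.229 and 0.178 in normal and at 121.57 and 88.8 in BAPN aorta, a log2 change of 6.45 ± 0.41 (adjusted p 0.00331). Cxcl3, encoded in the same cluster on chromosome 5, was not listed in normal 1, stood at 0.391 in normal 2, and reached 44.2 and 28.5 in BAPN aorta (log2 change 4.95, adjusted p 0.00621). These 3 neighbouring genes thus had groups that did not overlap, with every normal value below 3 and every BAPN value above 28.

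Chemokines of monocytes were among the rises as well. Ccl2, the main ligand of the monocyte receptor CCR2 (chr11:82035577-82037452), stood at 0.933 and 0.409 in normal and 250.27 and 125.79 in BAPN aorta, a log2 change of 6.76 ± 0.40 with an adjusted p of 0.00266 in limma. Its neighbour Ccl7 stood at 2.80 and 0.684 against 468.94 and 251.52 (log2 change 7.09, adjusted p 0.00621). Csf3, the growth factor of neutrophils, was not listed in either normal library and stood at 66.9 and 49.8 in BAPN aorta (adjusted p 0.00509), while the TPA libraries held 0.144 and 1.06. No fold is given for Csf3, since its normal libraries were at 0. Interleukin 1β (Il1b), a product of activated myeloid cells, stood at 0.229 and 0.471 against 108.44 and 63.3 (log2 change 5.96, adjusted p 0.0398). Ccl3, Osm, Ccl5 and Cxcl5 completed the 12, with log2 changes of 4.92, 4.21, 3.16 and 2.85 and adjusted p between 0.00579 and 0.0411. Not every member moved: Cxcl9, a chemokine induced by interferon γ, had a log2 change of 0.38 (adjusted p 0.582), and Csf1, the macrophage growth factor, 0.61 (adjusted p 0.645). The interferon response list had no call in limma among 15 tested genes (2 at an unadjusted p below 0.05) and a median change of 0.51.

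**Figure D3:**
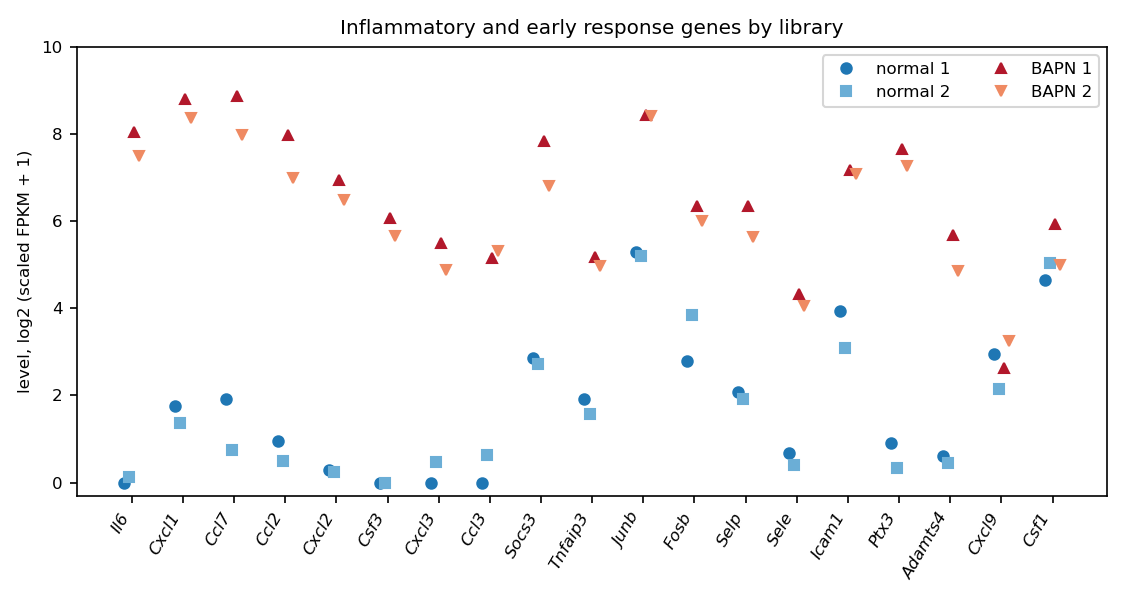
Level of inflammatory and early response genes, as log2 (scaled FPKM + 1), in the 2 normal libraries (blue) and the 2 BAPN libraries (red and orange), each point 1 library. Every gene from Il6 to Adamts4 has both BAPN points above both normal points, while Cxcl9 and Csf1, which did not pass, have overlapping or nearly overlapping points.

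The sequences just before the start sites of some of these genes are shown because NF-kB and AP-1 are the textbook regulators of cytokines and of endothelial adhesion molecules, and the series gave agents that act on AP-1. They are from RefSeq (GRCm38.p6), run 5′ to 3′ on the gene's strand up to the base before the start, and have matches to the AP-1 motif (TGANTCA), the NF-kB motif and the C/EBP motif (TTNNGNAA), on either strand, in capitals. The C/EBP matches are in capitals for Il6 only.
Il6, chr5:30012864-30013113, plus strand: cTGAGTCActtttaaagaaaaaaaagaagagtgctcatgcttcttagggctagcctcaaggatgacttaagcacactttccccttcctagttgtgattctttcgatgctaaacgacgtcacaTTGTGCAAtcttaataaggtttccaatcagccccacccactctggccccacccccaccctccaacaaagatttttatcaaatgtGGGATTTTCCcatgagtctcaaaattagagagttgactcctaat
Cxcl1, chr5:90891125-90891244, plus strand: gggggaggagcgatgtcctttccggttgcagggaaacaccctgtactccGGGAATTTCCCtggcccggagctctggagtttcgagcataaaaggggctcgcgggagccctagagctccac
Cxcl2, chr5:90903779-90903898, plus strand: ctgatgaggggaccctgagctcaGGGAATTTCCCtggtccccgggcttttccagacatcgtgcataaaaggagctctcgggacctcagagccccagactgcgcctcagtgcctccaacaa
Cxcl3, chr5:90785981-90786100, plus strand: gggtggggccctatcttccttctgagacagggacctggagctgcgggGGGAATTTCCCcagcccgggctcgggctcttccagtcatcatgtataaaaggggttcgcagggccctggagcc
Sele, chr1:164048114-164048233, plus strand: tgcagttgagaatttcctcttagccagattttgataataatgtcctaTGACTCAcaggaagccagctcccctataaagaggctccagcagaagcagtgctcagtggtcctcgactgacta
Tnfaip3, chr10:19015411-19015570, minus strand: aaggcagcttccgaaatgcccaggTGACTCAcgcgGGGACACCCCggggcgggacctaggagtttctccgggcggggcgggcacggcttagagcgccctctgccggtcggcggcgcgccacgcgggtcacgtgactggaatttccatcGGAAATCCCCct

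The 3 chemokine genes share the run GGGAATTTCCC, which holds a pair of overlapping NF-kB matches and begins 71 bases before the start in Cxcl1, 97 in Cxcl2 and 73 in Cxcl3. Il6 has an NF-kB match 44 to 35 bases before the start, a C/EBP match 128 to 121 before it and an AP-1 match 249 to 243 before it. Sele and Tnfaip3 have an AP-1 match 73 to 67 and 136 to 130 bases before their starts. Across windows from 250 bases before to 50 after the start, the AP-1 motif was present in 10 of 37 matched promoters of the inflammation rises (27.0%), 19 of 150 of all rises (12.7%), and 629 of 9936 of all tested genes (6.33%). Among the falls the AP-1 motif was present in 4 of 21 promoters (19.0%), a larger share than among all rises. It was present in 2 of 17 promoters of the contractile list (11.8%) and in 7.81% of all 32851 windows. The NF-kB motif was present in 32.4% of the inflammation rises, 18.7% of all rises, 12.8% of tested genes and 8.46% of all windows. Its share was 9.52% among the falls and 17.6% in the contractile list. A match is a string of letters and not a measured binding event, and no test was made of these shares.

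All 14 tested NF-kB subunits and feedback genes lay higher in both BAPN libraries than in both normal libraries, with a median change of 1.83 (-0.26 with libraries rescaled to the same sum), and 5 rose: Tnfaip3, Birc3, Relb, Nfkbie and Zc3h12a. Tnfaip3, which encodes the ubiquitin-editing inhibitor A20, stood at 2.78 and 1.97 in normal and at 35.3 and 30.6 in BAPN aorta (log2 change 3.34 ± 0.33, adjusted p 0.0126 in limma). The subunit Relb went from 4.95 and 4.93 to 26.8 and 31.6 (log2 change 2.34, adjusted p 0.019). Birc3, an inhibitor of cell death, went from 7.63 and 7.37 to 39.5 and 52.3 (log2 change 2.45, adjusted p 0.032). The inhibitor Nfkbia had a change of 1.78 with groups that did not overlap, but an adjusted p of 0.318 in limma. That miss depended on the spread of the T-5224 pair, whose libraries may differ in length of treatment.

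Of the 12 AP-1 subunits, Junb and Fosb rose, and 11 had both BAPN libraries above both normal libraries (median change 1.79, and 0.16 with libraries rescaled to the same sum). Junb stood at 37.9 and 35.8 in normal and at 347.75 and 342.6 in BAPN aorta, a log2 change of 3.19 ± 0.34 with an adjusted p of 0.0156 in limma, and at 359.57 and 233.99 in the TPA libraries. Fosb stood at 5.93 and 13.4 against 80.99 and 63.4 (log2 change 2.86, adjusted p 0.0479). The other subunits missed the threshold. Atf3, a stress-induced repressor, had a change of 3.46 (adjusted p 0.0569), Fosl1 3.37 (0.0751), Fos 2.30 (0.0915), Jun 1.15 (0.181) and the constitutive subunit Atf2 0.10 (0.837). Among 21 other immediate early genes 5 rose: Socs3, Myc, Dusp2, Zfp36 and Ier5. Their median was 1.76, and -0.47 with libraries rescaled to the same sum. Socs3, the feedback inhibitor of interleukin 6 signalling, had the largest of these changes: it stood at 6.31 and 5.57 in normal and at 229.71 and 111.45 in BAPN aorta (log2 change 4.54 ± 0.39, adjusted p 0.00759). It was the only call among 20 genes of the interleukin 6 family pathway, whose median change was 0.17. The receptor subunit Il6st had a log2 change of -0.84 (adjusted p 0.138), and the signal transducer Stat3 a change of 0.07 (adjusted p 0.915).

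Of 11 tested genes of activated endothelium, 3 rose. The list held adhesion molecules that capture leukocytes from the blood and other genes such as Plvap and Ptgs2. P-selectin (Selp) stood at 3.24 and 2.77 in normal and at 80.9 and 48.6 in BAPN aorta, a log2 change of 3.99 ± 0.35 with an adjusted p of 0.00801 in limma. E-selectin (Sele) stood at 0.596 and 0.320 against 19.0 and 15.6 (log2 change 3.65, adjusted p 0.0157). The integrin ligand Icam1 stood at 14.4 and 7.54 against 144.04 and 134.47 (log2 change 3.61, adjusted p 0.0126). None of these groups overlapped, and the TPA libraries held Selp at 6.78 and 10.1 and Sele at 1.10 and 1.12. The other 8 tested members of this list, Vcam1 among them (log2 change 1.40, adjusted p 0.184), missed the threshold, and the list's median was 1.61 (-0.64 with libraries rescaled to the same sum). Of 18 endothelial identity genes 0 passed in limma (1 at an unadjusted p below 0.05), with a median change of 0.55. The junction genes Pecam1 and Cdh5 had log2 changes of 0.43 (adjusted p 0.682) and 0.50 (adjusted p 0.702). The sign of the endothelial median depended on the scaling: it was -0.05 with the deposited FPKM and -1.58 with libraries rescaled to the same sum.

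In the wall itself, the genes of smooth muscle contraction lay lower as a group, although few passed. All 20 had a change below 0, the median was -2.46, and 17 had both BAPN libraries below both normal libraries. Only Synpo2, an actin-binding protein of the dense bodies, fell: it stood at 46.2 and 107.42 in normal and at 10.9 and 7.19 in BAPN aorta (log2 change -2.86 ± 0.48, adjusted p 0.043 in limma). Smooth muscle α-actin (Acta2) stood at 2439.4 and 8270.3 against 920.31 and 318.14, a change of -3.05 that missed the threshold (adjusted p 0.149). Smooth muscle myosin heavy chain (Myh11) stood at 522.76 and 1780.7 against 93.2 and 64.6 (change -3.62, adjusted p 0.172). Leiomodin (Lmod1), which seeds actin filaments, stood at 88.8 and 383.4 against 13.0 and 5.06 (change -4.33, adjusted p 0.0705). Normal 2 held more than 3 times the normal 1 level of each of Acta2, Myh11 and Lmod1, and these genes did not overlap between the groups all the same. Transgelin (Tagln) did overlap, at 1190.1 and 4483.8 against 1214.4 and 463.58 (change -1.62, adjusted p 0.295). The list's median kept its sign under all 7 other scalings, from -4.70 with libraries rescaled to the same sum to -1.78 with size factors from wall genes, and when any 1 of the 4 libraries was left out, from -2.97 to -1.89.

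The lower level of the contractile genes was set against other wall genes within each library, which takes the scaling factor out. Contractile genes exceeded collagens by 2.44 and 2.72 (log2, difference of list means) in normal 1 and 2 and by 1.01 and 0.87 in BAPN 1 and 2. They exceeded the elastic fibre list by 2.81 and 3.20 against 1.43 and 1.41, and endothelial genes by 2.78 and 3.72 against 0.51 and 0.11. Against fibroblast genes the difference was 1.16 and 2.76 in normal and -0.20 and -0.61 in BAPN aorta. The groups did not overlap in any of these, nor for basement membrane genes (2.55 and 3.11 against 1.97 and 1.08). Libraries given BAPN with another agent ranged from 0.65 to 3.73 for the difference from collagens. No test was made of these differences.

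**Figure D4:**
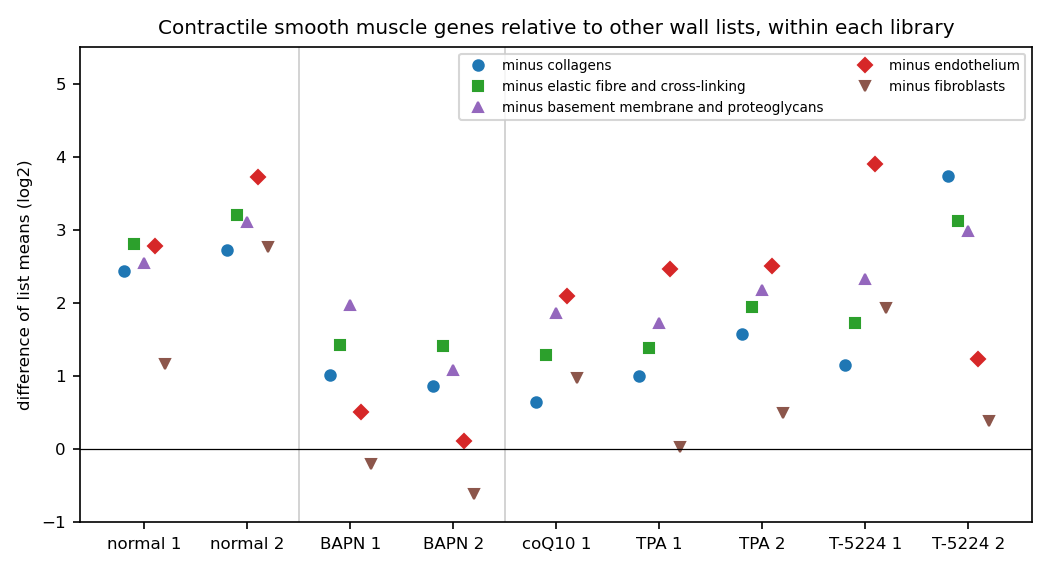
Mean log2 level of the contractile list minus that of 5 other wall lists (vertical axis) in each of the 9 libraries (horizontal axis), normal and BAPN separated by lines. The BAPN libraries lie below the normal libraries for each of the 5 differences, from -0.61 to 1.97 against 1.16 to 3.72.

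Regulators and receptors of smooth muscle gave 3 of the falls. Zbtb16, a zinc finger repressor known as a glucocorticoid-induced gene, stood at 29.8 and 62.2 in normal and 2.82 and 2.22 in BAPN aorta (log2 change -3.65 ± 0.53, adjusted p 0.037 in limma). Tead1, the DNA-binding partner of the YAP coactivator, stood at 14.9 and 15.9 against 4.56 and 4.12 (log2 change -1.62 ± 0.27, adjusted p 0.043), with an SD of 0.740 in normal and 0.308 in BAPN aorta (n = 2 each). Npy1r, the receptor through which neuropeptide Y constricts arteries (chr8:66697149-66706800), stood at 27.5 and 73.5 against 1.31 and 2.34 (log2 change -4.05 ± 0.52, adjusted p 0.0264). Myocardin (Myocd), the master coactivator of contractile genes, had a change of -3.23 (adjusted p 0.0878) with groups that did not overlap, the α1D adrenergic receptor Adra1d -4.18 (adjusted p 0.0887) and Notch3 -2.30 (adjusted p 0.0582). Srf, the partner of myocardin, had a change of -0.21 (adjusted p 0.779). Of the tone list's 24 tested receptors and channels, 13 lay lower without overlap and 4 higher, against 28.3% and 31.4% of all tested genes. The endothelin receptor Ednrb and the angiotensin receptor Agtr1a were among those 4, with changes of 1.71 (adjusted p 0.256) and 2.09 (adjusted p 0.216).

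The other large falls included genes of the sarcoplasmic reticulum, the cytoskeleton and lipid droplets. Atp2a2, the calcium pump SERCA2 of heart and smooth muscle, stood at 315.23 and 210.11 in normal and at 47.3 and 35.4 in BAPN aorta (log2 change -2.62, adjusted p 0.0424 in limma). Bves, a membrane protein of muscle, stood at 9.34 and 9.43 against 0.704 and 1.18 (log2 change -2.43, adjusted p 0.0462), and Rbm24, an RNA-binding splicing factor of striated muscle, had a change of -2.52 (adjusted p 0.0264). The summed level of heart markers was 9950 in normal 1, 219 in normal 2, and 400 and 146 in BAPN aorta, and its part in these falls was not tested. Plin4, a coat protein of lipid droplets, stood at 126.04 and 179.91 against 21.4 and 15.5 (log2 change -2.98, adjusted p 0.0264). The fat markers Adipoq and Plin1 had changes of -3.12 (adjusted p 0.261) and -2.24 (adjusted p 0.272), all 11 tested white fat genes had a change below 0, and the part of fat in the value of Plin4 was not tested. Cap2, Kif13a, Adcy6 and Parm1 made up the largest falls with changes between -2.71 and -2.27. Tmem254c, 1 of a set of near-identical copies, stood at 32.7 and 40.3 in normal and was not listed in BAPN aorta. Its reads may be split among the copies, so its value is uncertain. For 25 of the 30 falls both BAPN libraries lay below all other 7 libraries. All 30 already lay below both normal libraries, and no share of all tested genes is given for this count. The longest transcripts of the falls had a median length of 4845 bases, against 2066 for the rises and 3341 for all tested genes, in the direction of the length trend between the groups. With each library's length trend removed, 88 rises and 14 falls were called, and 88 and 13 of them were the same genes.

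The enzymes that BAPN inhibits, and their substrates, showed no call. Lysyl oxidase (Lox) stood at 15.8 and 55.3 in normal and at 87.2 and 51.7 in BAPN aorta, so the groups overlapped (log2 change 1.15 ± 0.94, adjusted p 0.49 in limma). Loxl1 had a change of -1.55 (adjusted p 0.422), Loxl2 0.38 (0.796), Loxl3 -1.59 (0.378) and Loxl4 0.10 (0.915). Elastin (Eln) stood at 324.34 and 1060.7 against 559.14 and 146.71, a spread within each group larger than the difference between them (change -1.03 ± 1.98, adjusted p 0.784). Of 23 tested genes of elastic fibres and cross-linking 0 passed (3 at an unadjusted p below 0.05), and the median was -0.95. Both BAPN libraries lay below both normal libraries for 11 of the 23 and above for none (28.3% and 31.4% of all tested genes). Of 18 collagens 0 passed in limma (2 at an unadjusted p below 0.05), with a median of -0.87. Both BAPN libraries lay below both normal libraries for 11 of the 18 and above for 1, and 12 had a change below 0. Col1a1 and Col3a1, the main fibrillar collagens, had changes of 0.40 (adjusted p 0.902) and 0.44 (adjusted p 0.87), and Col5a3 had one of 2.43 (adjusted p 0.0642). Col4a6 and Col18a1 went the other way, at -3.21 (adjusted p 0.201) and -3.05 (adjusted p 0.279). At 2 libraries a group, changes of this size in genes that vary this much could not be told from 0. The medians of the elastic and collagen lists ranged from -0.44 to -1.37 and from -0.55 to -1.20 when 1 of the 4 libraries was left out. With size factors from wall genes they were -0.29 and -0.20, and with libraries rescaled to the same sum -3.12 and -3.08. The changes of Loxl2, Loxl4, Col1a1 and Col3a1 turned below 0 with the deposited FPKM, with haemoglobin left out of the sum and with libraries rescaled to the same sum, and that of Lox with the last of these.

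**Figure D5:**
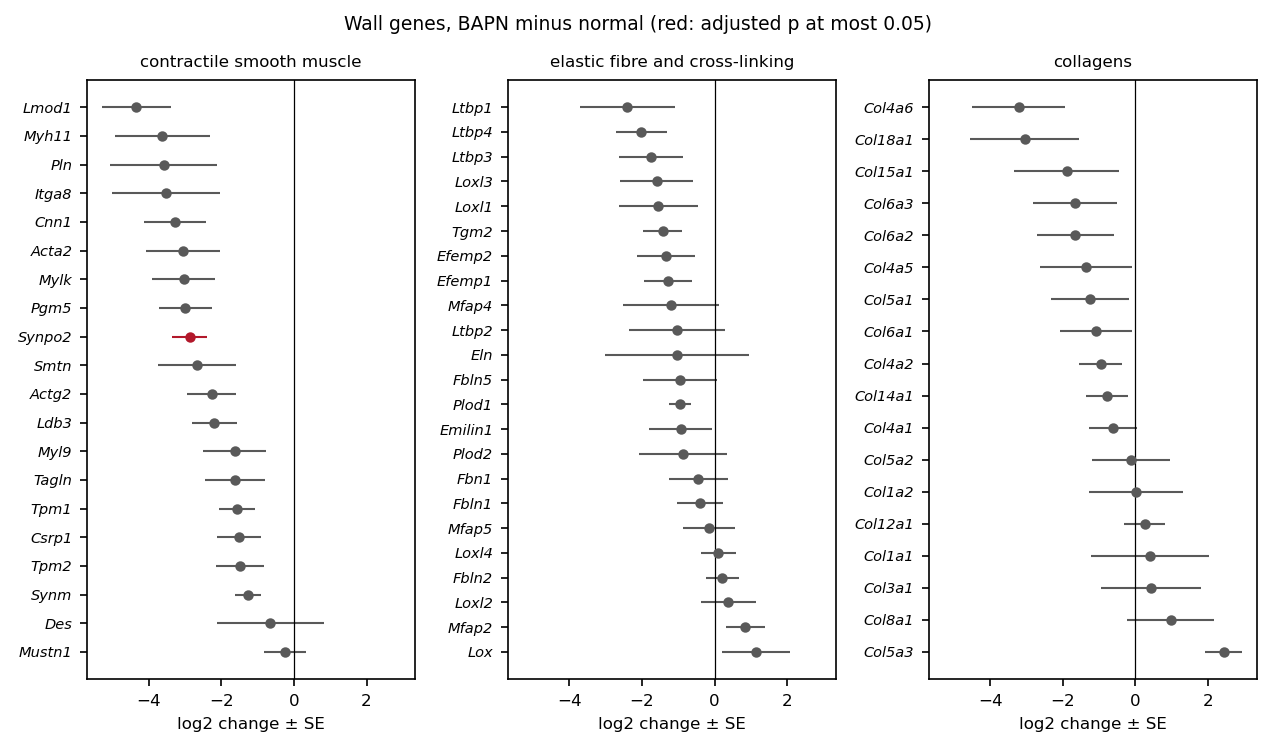
Log2 change (BAPN minus normal) with its standard error from limma for each tested gene of the contractile, elastic fibre and collagen lists. All 20 contractile genes lie left of 0, only Synpo2 passed (red), and the elastic fibre and collagen genes scatter on both sides, from Ltbp1 at -2.41 to Lox at 1.15 and from Col4a6 at -3.21 to Col5a3 at 2.43.

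Among genes of matrix turnover 2 changed, in opposite directions. Adamts4, a protease that cleaves the proteoglycans versican and aggrecan (chr1:171250129-171262267), stood at 0.535 and 0.373 in normal and at 50.2 and 27.9 in BAPN aorta, a log2 change of 4.73 ± 0.42 with an adjusted p of 0.00895 in limma. It stood at 1.02 and 2.47 in the TPA libraries. Its relative Adamts15 went the other way, from 5.99 and 12.4 to 1.44 and 0.943 (log2 change -2.15, adjusted p 0.0495). They were the only calls among 25 proteases and inhibitors. Of these 25, 15 lay higher without overlap and 6 lower, against 31.4% and 28.3% of all tested genes. The gelatinases Mmp2 and Mmp9 had changes of 0.92 (adjusted p 0.331) and 0.88 (adjusted p 0.564), and the inhibitor Timp1 had one of 3.59 (adjusted p 0.0782).

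Genes for making and binding hyaluronan, the large sugar polymer of soft matrix, gave 3 rises. Has1, a hyaluronan synthase, stood at 0.986 and 0.737 in normal and 66.7 and 24.9 in BAPN aorta (log2 change 4.49 ± 0.50, adjusted p 0.017 in limma). Tnfaip6, which transfers protein chains onto hyaluronan, stood at 2.29 and 3.12 against 104.66 and 64.2 (log2 change 4.50, adjusted p 0.0156). Ptx3, a pentraxin that binds Tnfaip6 in that matrix, stood at 0.879 and 0.258 against 200.08 and 152.13 (log2 change 6.83 ± 0.80, adjusted p 0.019). They were the 3 calls among 19 genes of hyaluronan and matricellular proteins, whose median was -0.24. The TGF-β response list had no call in limma among 19 genes (7 at an unadjusted p below 0.05) and a median of -0.89. Of the 19, 12 lay lower without overlap and 4 higher, against 28.3% and 31.4% of all tested genes. The BMP targets Id1 and Id4 of this list had changes of -2.42 (adjusted p 0.0573) and -2.63 (adjusted p 0.0566). Fibroblast markers had no call in limma among 15 (1 at an unadjusted p below 0.05), and 12 of the 15 overlapped between the groups.

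Clock genes moved in part. Of 17 tested, 2 passed in limma (10 at an unadjusted p below 0.05), and the median was -0.97. Of the 17, 11 lay lower without overlap and 3 higher, against 28.3% and 31.4% of all tested genes. The output factors Tef and Hlf, which bind D-box sites downstream of the clock, fell: Tef from 56.4 and 76.3 to 15.5 and 16.5 (log2 change -1.97 ± 0.29, adjusted p 0.0381 in limma) and Hlf from 11.7 and 9.93 to 1.54 and 2.00 (log2 change -2.09, adjusted p 0.0479). The repressor Per2 stood at 33.2 and 66.3 against 3.65 and 3.46 (change -3.40, adjusted p 0.109) and the activator Arntl at 3.03 and 2.22 against 12.9 and 8.41 (change 1.67, adjusted p 0.313), while Per1 had a change of -0.03. No source used here gives the time of day of killing, and its part was not tested. Zbtb16 and Plin4 were the only calls among 16 glucocorticoid-responsive genes, and Fkbp5 and Tsc22d3 of the same list had changes of -1.50 (adjusted p 0.434) and 0.05 (adjusted p 0.983).

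Haem oxygenase 1 (Hmox1), which breaks down haem, rose from 21.8 and 13.0 to 988.67 and 265.91 (log2 change 4.85 ± 0.81, adjusted p 0.043 in limma), and the sulfiredoxin gene Srxn1 rose with a change of 2.43 (adjusted p 0.0377). The other 13 genes of haem breakdown and iron did not pass, the ferritin gene Ftl1 having a change of 2.47 (adjusted p 0.0832). The mitotic genes Ccnb2 and Cdc20 rose in limma, by 2.38 (adjusted p 0.0411) and 1.91 (adjusted p 0.0497). Of 17 tested cell cycle genes 15 lay higher without overlap, against 31.4% of all tested genes. Their median was 1.28, and -0.28 with libraries rescaled to the same sum. Nuclear genes of oxidative phosphorylation had no call in limma among 28 (0 at an unadjusted p below 0.05 as well) and a median of 0.08, which was 0.77 without normal 1 and -0.60 without normal 2, and 26 of them overlapped between the groups. No gene passed in limma among 18 of fatty acid oxidation, 15 of the unfolded protein response, 16 of heat shock, 20 of hypoxia and glycolysis or 11 of coenzyme Q synthesis. Of these lists, 0, 2, 4, 5 and 1 genes were at an unadjusted p below 0.05, against 2978 of all 13011 tested genes.

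Blood genes were far higher in both BAPN libraries. The adult β-globin gene Hbb-bs, whose reads may be shared with the near-identical Hbb-bt, stood at 1414.6 and 1241 in normal and at 396780 and 484370 in BAPN aorta (log2 change 8.37 ± 1.27, adjusted p 0.0381 in limma). Alas2, the haem synthesis enzyme of red cell precursors, stood at 13.2 and 11.1 against 3245.2 and 3865.7 (log2 change 8.08, adjusted p 0.0156). All 13 tested red cell genes of the 15 in the list lay higher without overlap and 7 rose. Klf1 of this list was not tested, and it was listed in neither BAPN library but not absent from both normal libraries. All 11 platelet genes lay higher, and Pf4, the platelet chemokine, went from 37.4 and 34.4 to 516.52 and 522.84 (log2 change 3.82, adjusted p 0.019). Among 12 neutrophil genes 3 rose: the calgranulins S100a8 and S100a9, with changes of 6.23 and 6.39, and the decoy receptor Il1r2, with 4.48. The summed neutrophil level was 226 and 27.6 in normal and 2460 and 1470 in BAPN aorta, Ly6g was not listed in either normal library, and the precursor genes Mpo and Elane were not listed in either BAPN library. The T cell and B cell lists had no call in limma (6 of 9 and 4 of 7 at an unadjusted p below 0.05), and their sums were 16.2 and 2.40 against 31.1 and 260, and 28.6 and 1.46 against 78 and 746. Of 15 macrophage genes 0 passed (1 at an unadjusted p below 0.05), with a median of 0.35, and 12 overlapped. The mean red cell, platelet and neutrophil levels were higher in both BAPN libraries, as the cytokines were, while most macrophage genes overlapped. In the TPA libraries the mean log2 level of the red cell list was 9.09 and 8.87, against 8.65 and 8.92 in BAPN. That of the cytokine list was 3.35 and 3.07, against 4.86 and 4.61 in BAPN. The part of blood cells in the cytokine rises was not tested.

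Genes of sympathetic neurons formed the other large group that lay higher in the 2 libraries given BAPN alone. All 18 lay higher in both BAPN libraries than in both normal libraries, the median change was 4.56, and Gal, Uchl1 and Sncg rose. The neuropeptide galanin (Gal) stood at 0.145 in normal 1, was not listed in normal 2, and reached 86.4 and 118.89 in BAPN aorta (log2 change 6.58 ± 0.82, adjusted p 0.0264 in limma). The enzymes of noradrenaline synthesis did not pass but went the same way: Dbh stood at 2.89 and 0.178 against 339.08 and 348.16 (adjusted p 0.0728), and Th at 6.99 and 0.142 against 225.75 and 250.15 (adjusted p 0.112). The list's mean log2 level was 3.20 and 1.15 in normal, 6.92 and 7.42 in BAPN, 2.96 and 5.27 in TPA, and between 1.20 and 3.78 in the T-5224 and coQ10 libraries. All 13 nerve and Schwann cell genes lay higher as well, with a median of 2.25 and no call in limma (12 at an unadjusted p below 0.05), and their sums were 259 and 137 against 1130 and 1040. Neuron genes thus moved with the inflammatory genes in the same 2 libraries, and their part in the other rises was not tested.

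Tissue around the aorta differed between the normal libraries. Beside the cardiac sums given above, the summed level of airway and alveolar genes was 15800 in normal 1 against 40.3 in normal 2 and 39.6 and 33.5 in BAPN aorta, where the surfactant genes Sftpa1, Sftpb and Sftpc were not listed. White fat genes summed to 13500 in normal 1 against 4100, 5890 and 4400 in the other 3, and mesothelial genes to 367 against 12.5, 33.8 and 11.1. Without normal 1 the medians of these 4 lists were 0.84, 0.00, 0.22 and 0.01, against -2.60, -3.02, -1.70 and -2.32 with it. Skeletal muscle genes went from 2810 and 85.1 to 5170 and 3490, with a median of 3.77 that was 6.33 without normal 1 and 0.67 without normal 2. No gene of the cardiac, airway, mesothelial or skeletal lists passed in limma (3, 1, 0 and 2 at an unadjusted p below 0.05), and in the white fat list Plin4 alone fell.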

How the data were processed

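Bulk RNA from mouse aorta was sequenced. Per the labels' protocols, Trizol was used for extraction and a TruSeq RNA kit for the libraries. The deposited values are FPKM by gene symbol, in a table for each library, and the submitters' processing notes name the genome build mm10. No source used here names the aligner, the counting tool or the annotation. FPKM carry no counts, so the depth is unknown and no count test was possible. Low FPKM are spaced by the value of 1 read, and the commonest ratio of low values between 0.08 and 0.5 to BAPN 2 was 1.00 in both normal libraries (38 and 35 genes) and 1.19 in BAPN 1 (21 genes). FPKM follow the share taken by abundant genes, so each library was divided by a median-of-ratios size factor over 9849 genes with FPKM of at least 1 in all 9 libraries (1.308 and 1.126 for normal, 0.81 and 0.7743 for BAPN).

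Genes with a mean scaled FPKM of at least 1 over 9 libraries were tested, 13011 of 17179 symbols. Unlisted genes were set to 0. Log2(scaled FPKM + 1) was modelled by group (5 groups, leaving 4 residual degrees of freedom) in limma 3.58.1 (R 4.3.3) with an intensity trend, and two-sided p-values had Benjamini-Hochberg adjustment across the tested genes, with a threshold of 0.05. The procedure was also run on simulated data in which every gene had the same spread and no library stood apart. That setting differs from these data, so it cannot show how reliable the calls here are. Tables used pandas 2.3.3 and numpy 2.4.6 in python 3.11.15, and figures matplotlib 3.10.9. The comparison, the gene lists and the alternatives were chosen with earlier results of these data known, so lists are described by counts and medians without a test. Genes named are the 12 largest rises and 12 largest falls that passed without overlap, the 4 members with the smallest p in a list, and members of 8 lists of wall, cytokine, AP-1, protease, glucocorticoid, clock and tone genes, of which the text gives a selection. Some genes outside that rule, such as Stat3, Dbh, Th and Nfkbia, were taken after their values were seen. Coordinates and promoter sequences are from RefSeq GRCm38.p6, which matched 12499 of the tested genes (96.1%), and transcript lengths covered 97.3%. Alternatives were other scalings, a pseudocount of 0.1, other filters, a fit of the 4 libraries alone, no intensity trend, removal of the length trend, the replicate number as a block, and leaving out each library.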

Additional observations from a re-analysis of the deposited data

How the results depend on the processing

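Counts of calls depended on the processing, while few calls changed direction, which many of the alternatives could hardly alter. Against 199 rises and 30 falls, the counts were 117 and 307 with the deposited FPKM, 21 and 2 with haemoglobin left out of the sum, 111 and 21 with upper quartile scaling, and 82 and 11 with a pseudocount of 0.1. They were 268 and 76 after quantile normalization, 268 and 6 with size factors from wall genes, 146 and 9557 with libraries rescaled to the same sum, 88 and 14 with the length trend removed, 152 and 18 without a filter, and 162 and 15 with only the normal and BAPN libraries (100 and 6 of them among the 199 and 30). Leaving out 1 library gave from 4 to 1117 rises and from 0 to 685 falls. Leaving out normal 1 and T-5224 2 together, chosen after seeing the data, gave 1821 and 1307. With the replicate number as a block the counts were 44 and 1. Deviations of same-numbered libraries from their group means correlated, across genes, from r = -0.436 to 0.176 over the 6 pairings of the normal, BAPN, TPA and T-5224 groups (normal and BAPN -0.0835), so the numbers were not taken to pair the samples. The cause of these shifts was not tested.

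Of all 229 calls, 27 rises turned sign with libraries rescaled to the same sum, 2 of them named above, Zc3h12a (-0.16) and Ier5 (-0.32). No other call turned, under any alternative in which it had a value. Other filters, a fit of the 4 libraries alone, no intensity trend and the replicate block left the difference of group means as it was. All 229 calls also had groups that did not overlap. Many of these alternatives thus could not, or could hardly, turn a call. Among named genes that had not passed, rescaling to the same sum turned 19: Cxcl9 (-1.55), Csf1 (-1.61), Nfkbia (-0.49), Jun (-1.11), Atf2 (-2.02), Stat3 (-2.17), Vcam1 (-0.77), Pecam1 (-1.84), Cdh5 (-1.76), Ednrb (-0.47), Lox (-1.08), Loxl2 (-1.70), Loxl4 (-1.29), Col1a1 (-1.87), Col3a1 (-1.84), Mmp2 (-1.29), Mmp9 (-0.67), Arntl (-0.23) and Tsc22d3 (-2.22). Its median over all tested genes was -1.92. The deposited FPKM and, after it, leaving haemoglobin out of the sum turned Cxcl9 (-0.14 and -0.03), Atf2 (-0.47 and -0.36), Stat3 (-0.53 and -0.41), Pecam1 (-0.18 and -0.06), Loxl2 (-0.18 and -0.07), Loxl4 (-0.28 and -0.22), Col1a1 (-0.21 and -0.08), Col3a1 (-0.18 and -0.05) and Tsc22d3 (-0.56 and -0.44), and the deposited FPKM alone Cdh5 (-0.11). Upper quartile scaling turned Stat3 (-0.04) and Tsc22d3 (-0.06), and quantile normalization Stat3 (-0.12), Loxl4 (-0.08) and Tsc22d3 (-0.22). Size factors from wall genes turned Srf (0.46) and Per1 (0.64), and removal of the length trend Per1 (0.06) and Tsc22d3 (-0.13). Leaving out 1 library moved Cxcl9 between -0.02 and 0.77, Atf2 between -0.04 and 0.27, Stat3 between -0.06 and 0.22, Srf between -0.67 and 0.24, Loxl2 between -0.17 and 0.95, Loxl4 between -0.30 and 0.50, Col3a1 between -0.18 and 1.08, Per1 between -0.30 and 0.26 and Tsc22d3 between -0.23 and 0.31. Il6, Cxcl1 and Ccl2 passed under all 24 alternatives. With 2 libraries a group and unknown depth, genes that vary between replicates, such as Eln and Acta2, and genes near 0 are limited most.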

Other observations

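Of the 199 rises, 68 belonged to none of the classes described above. They were named after their values were seen. The protein C receptor of endothelium, Procr, stood at 14.4 and 8.13 scaled FPKM in normal and at 202.09 and 122.21 in BAPN aorta (log2 change 3.74, adjusted p 0.043 in limma). The tubulin-binding protein Stmn1 stood at 25.1 and 7.16 against 260.67 and 282.23 (log2 change 4.22, adjusted p 0.0264), and the actin-sequestering peptide Tmsb10 at 311.93 and 293.82 against 2764.9 and 3794.4 (log2 change 3.42, adjusted p 0.032). The copper importer Slc31a1 stood at 9.73 and 4.32 against 42.0 and 63.6 (log2 change 2.80, adjusted p 0.0424). The exonuclease Isg20 had a log2 change of 4.98 (adjusted p 0.043).

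A few symbols changed by being listed or not. With FPKM of at least 1 as the minimum, 11 symbols were listed in both normal libraries and in neither BAPN library, and 23 the other way round. Tmem254a and Tmem254c were among the 11, while the third copy, Tmem254b, rose from an unlisted value and 0.844 to 25.1 and 9.40 (adjusted p 0.043 in limma). Reads may be split among these copies.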
